A study of Mus musculus with 12 samples.

Results

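The 10 genes described here are the core of the MHC class I antigen presentation pathway in mouse mesangial cells (MMC), chosen by symbol from the 25230 genes in the deposited counts: H2-K1, H2-D1, B2m, Tap1, Tap2, Tapbp, Psmb8, Psmb9, Psmb10 and Nlrc5. All 10 symbols were found in all 12 libraries. The mRNA sequenced came from MMC, the smooth muscle-like pericytes of the glomerular tuft, grown out of pooled glomeruli. The mice were wild type (WT) or of the lncMGC-KO5 line. In KO5 mice, Cas9 editing with a pair of guides removed DNA at the transcription start site of lncMGC, the long non-coding RNA that hosts the miR-379 cluster of miRNAs. MMC of both genotypes were kept in serum-depleted medium (SD) or given 10 ng/ml of TGF-β for 24 h. The groups WT-SD and KO-SD, WT-TGF and KO-TGF have 3 libraries each. KO5 is a single line, the labels do not say how many animals or cultures the libraries of a genotype came from, and genotype and culture cannot be told apart. The p-values thus measure the spread between these libraries, which may be technical.

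Class I molecules show peptides from inside the cell to CD8+ T cells. A heavy chain (H2-K1 and H2-D1 here) pairs with β2-microglobulin (B2m) in the endoplasmic reticulum, where the TAP transporter (Tap1 and Tap2) delivers peptides and tapasin (Tapbp) helps to load them. Interferon-γ classically replaces the constitutive catalytic subunits of the proteasome, Psmb5, Psmb6 and Psmb7, by the immunoproteasome subunits Psmb8, Psmb9 and Psmb10, and NLRC5 is a transactivator of class I promoters. Nearly all nucleated cells carry class I, and resting kidney cells have low levels that inflammatory cytokines raise.

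Libraries held between 19898050 and 22827706 counts on genes. The counts hold no lncMGC, and the deletion was therefore not checked in them, and KO stands for the libraries labelled KO. The smooth muscle and mesangial marker genes (7 genes, with Acta2 and Tagln) summed to 2500 to 2630 CPM (counts scaled to library size, with sizes adjusted by TMM) in WT-SD and to 4800 to 4970 CPM in KO-SD, and Thy1 was at 0 in both. Des, an intermediate filament gene of the same list, was lower in KO (log2 fold change -3.84 in SD, adjusted p = 1.56e-17). Markers of other cells differed between the genotypes. All 8 macrophage markers were lower in KO at FDR <5% in SD and in TGF in the fit without a limit on expression: their summed CPM was 26.6 to 28.4 in WT-SD, 16.3 to 20.2 in WT-TGF, 2.06 to 2.22 in KO-SD and 0.804 to 1.45 in KO-TGF, and Adgre1, C1qa and C1qb were at 0 in all KO libraries. The podocyte marker Podxl ranged from 95.8 to 101 CPM over the WT-SD libraries, 72.7 to 75.2 over WT-TGF, 32.3 to 33 over KO-SD and 24.5 to 26.9 over KO-TGF, and the tubular markers (4 genes, mainly Lrp2) summed to 41.9 to 44.5, 11.6 to 12.1, 10.3 to 12.1 and 3.37 to 3.97 CPM. T and NK cell markers stayed at or below 0.0458 CPM, dendritic and B cell markers at or below 0.223 CPM and endothelial markers at or below 0.772 CPM. These marker levels move with genotype and treatment, as do the values below, and their part in those values was not tested. In bulk RNA, fewer cells of a type and less RNA per cell cannot be told apart.

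On the genome (GRCm38.p6, the assembly of mm10), 7 of the 10 genes lie in the major histocompatibility complex on chromosome 17: Tapbp (33919478 to 33929290, plus strand), H2-K1 (33996012 to 34000619, minus), Psmb9 (34182030 to 34187330, minus), Tap1 (34187556 to 34197225, plus), Psmb8 (34198195 to 34201454, plus), Tap2 (34204479 to 34216321, plus) and H2-D1 (35263094 to 35267497, plus). B2m lies on chromosome 2 (122147687 to 122153082, plus), and Psmb10 (105935728 to 105938392, minus) and Nlrc5 (94434335 to 94527272, plus) lie on chromosome 8. For 8 of the 10 genes the RefSeq table held a promoter window, from 250 bases before to 50 bases after a transcript start. Class I promoters are known for an SXY module, whose X2 box holds the letters TGACG and whose Y box is a reversed CCAAT, read as ATTGG. These are shown for the heavy chains and B2m because the protein partners have the same pair of motifs with 20 bases between them, on the strand of the gene and with no overlap. The stretches are chr17:34000354-34000403 (minus strand) for H2-K1, chr17:35262978-35263027 (plus) for H2-D1 and chr2:122147594-122147643 (plus) for B2m, with TGACG and ATTGG in capitals. The H2-K1 stretch precedes a transcript start of the table and lies within the annotated span of the gene.
H2-K1: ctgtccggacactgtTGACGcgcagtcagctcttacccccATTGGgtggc
H2-D1: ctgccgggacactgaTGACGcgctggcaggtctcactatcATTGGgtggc
B2m: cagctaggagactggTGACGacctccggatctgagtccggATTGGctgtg
This spacing was chosen after the matches were seen, and 31 of 32851 promoter windows (0.0944%, 27 symbols) hold it, among them that of H2-M3 but none of those of the 5 other class I genes with a window. Alone, TGACG was found in 20.8% and CCAAT in 37.4% of the windows on either strand. A match is a description of the letters and not of a bound site.

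Tap1 and Psmb9 are transcribed away from each other, with 225 bases between their starts, so that their windows share 275 bases. The stretch between the starts (chr17:34187331-34187555, plus strand, Psmb9 to the left) is shown because a TAP chain and an immunoproteasome subunit share it, with TGACG in capitals.
Tap1 and Psmb9: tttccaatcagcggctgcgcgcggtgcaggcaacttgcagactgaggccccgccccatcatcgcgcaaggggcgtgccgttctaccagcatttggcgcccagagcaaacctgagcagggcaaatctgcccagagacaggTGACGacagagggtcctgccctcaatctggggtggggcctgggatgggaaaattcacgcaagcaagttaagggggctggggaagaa
Of the letter patterns searched for interferon responses, each was found in the window of a single gene. Interferon elements spelled with other letters were not searched. GAAA, any 2 letters and again GAAA, the core of an interferon-stimulated response element, were found in the B2m window alone (in 3.44% of all windows), and TTCNNNGAA, the letters of an interferon-γ-activated element, in the Psmb8 window alone (in 8.3% of all windows), both searched on either strand. The stretches printed below, chr2:122147538-122147567 for B2m and chr17:34198083-34198121 for Psmb8, both on the plus strand, hold the match in capitals. They are shown as the only matches to these letters among the 8 genes with a window. Tap2 and Nlrc5 had no window and were not searched.
B2m, second stretch: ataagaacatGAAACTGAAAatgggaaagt
Psmb8: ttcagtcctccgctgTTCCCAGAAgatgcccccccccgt

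Class I genes were lower with TGF-β and lower in KO, in most of the 10 genes in each comparison. With edgeR's quasi-likelihood test and Benjamini-Hochberg adjustment over all genes tested, 9 of the 10 genes were lower in WT-TGF than in WT-SD at FDR <5% and none was higher, against 36.3% of 11801 genes that were lower and 35.8% that were higher (genes with RPKM >1 in at least 1 library, RPKM being CPM per kilobase of exon). In KO, TGF-β lowered all 10, against 39.0% of genes lower and 34.7% higher. In SD, 9 were lower in KO than in WT and none was higher, against 25.0% and 31.0% of genes, and in TGF again 9 and none, against 27.5% and 27.0% of genes. Nlrc5 did not reach RPKM 1 and was read from a second fit without that limit, of 18565 genes, where 25.8%, 28.5%, 17.9% and 20.3% of genes were lower in these comparisons. That fit gave the same 4 counts of the 10 genes. Psmb9 passed the limit in the WT-SD libraries alone, the group where it was highest, so it could only differ downwards from there. The 4 comparisons share libraries, so their counts do not add up as separate evidence. The 10 genes were also chosen with earlier results of these data known, so the shares are a description only.

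The sizes differed more than the directions. The median log2 fold change (log2FC) of the 10 genes was -0.71 for TGF-β in WT, -0.88 for TGF-β in KO, -1.05 for KO in SD and -0.98 for KO in TGF, where the medians of all genes tested were -0.01, -0.03, 0.02 and 0.00. More than 2-fold lower were 2, 4, 5 and 5 of the 10 genes in these comparisons (6.10%, 9.60%, 3.41% and 4.97% of the 11801 genes with RPKM >1). Nlrc5, counted in all of these but TGF-β in WT, is not among the genes behind the percentages. Psmb9, in all 4 counts and among the 7 genes named next, passed the RPKM limit in the WT-SD libraries alone. H2-K1, H2-D1, Tap1, Tap2, Tapbp, Psmb8 and Psmb9, which are the 7 genes on chromosome 17, were lower in all 4 comparisons, as were 11.4% of all genes tested. The exceptions were B2m, which did not pass the test between genotypes in SD, Psmb10, which did not pass it between genotypes in TGF, and Nlrc5, which did not pass it for TGF-β in WT.

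**Figure D1:**
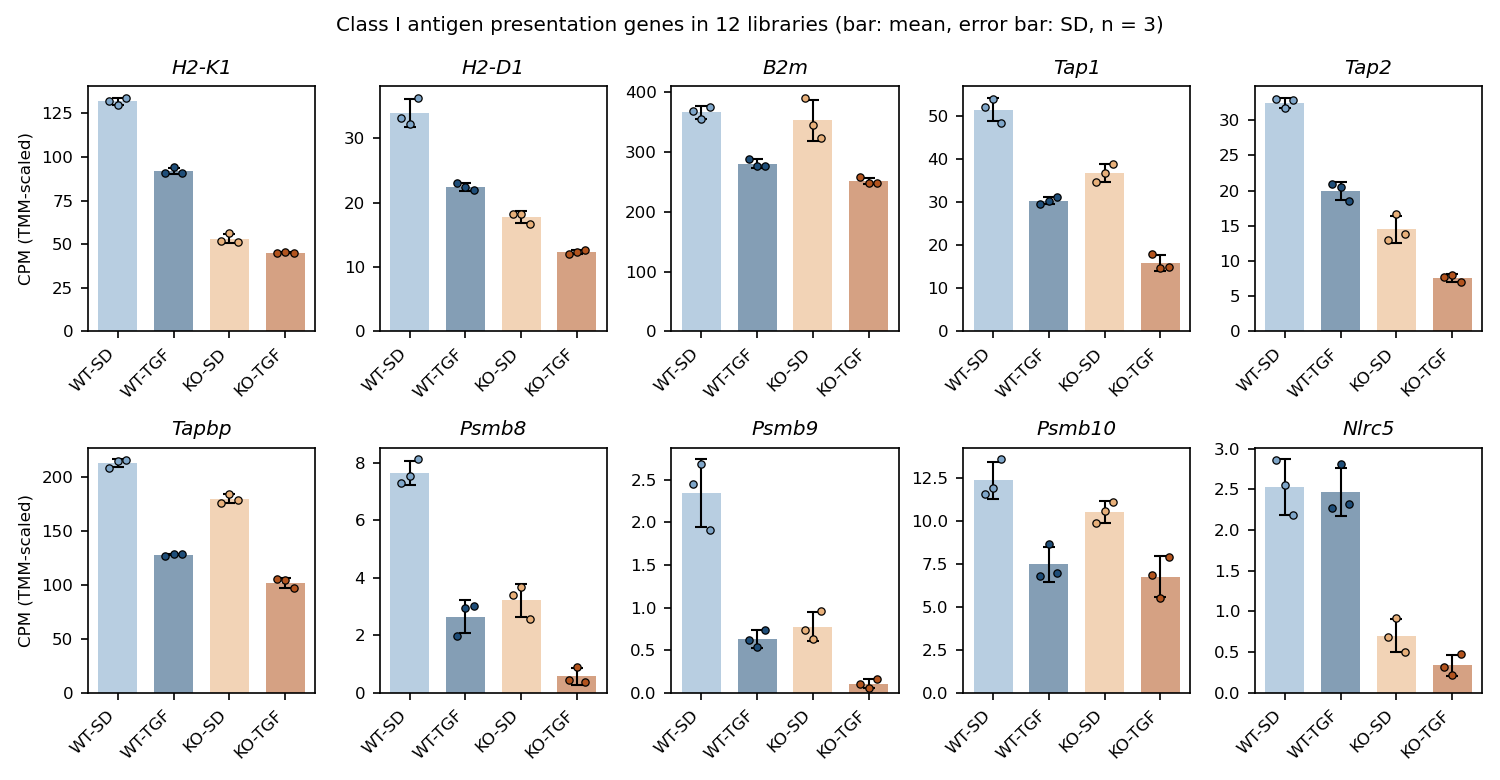
CPM (TMM-scaled, y axis from 0, a separate scale for each gene) of the 10 class I genes in the 4 groups; bars are means of 3 libraries, error bars SD and points single libraries. H2-K1 falls from 130 to 134 CPM in WT-SD to 44.7 to 45.2 CPM in KO-TGF, while the B2m libraries of WT-SD and KO-SD overlap and those of Nlrc5 overlap between WT-SD and WT-TGF.

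The heavy chain H2-K1 differed more by genotype than by treatment. H2-K1 measured, in CPM, 132, 130 and 134 in the 3 WT-SD libraries, 90.8, 94.2 and 90.8 in WT-TGF, 51.6, 56.1 and 51.4 in KO-SD and 45.1, 45.2 and 44.7 in KO-TGF. Every library of a group was below every library of the group before it in this order. Between genotypes H2-K1 was 2.49-fold lower in KO-SD (log2FC -1.32, SE 0.0368, adjusted p = 8.23e-24) and 2.04-fold lower in KO-TGF (-1.03, SE 0.0397, adjusted p = 3.44e-20). With TGF-β it fell 1.44-fold in WT (-0.52, adjusted p = 1.33e-14) and 1.18-fold in KO (-0.24, adjusted p = 1.08e-05).

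H2-D1, the other heavy chain, was less abundant and moved in the same directions. It measured, in CPM, 33.1, 32.2 and 36.3 in WT-SD, 23.1, 22.4 and 21.9 in WT-TGF, 18.3, 18.3 and 16.6 in KO-SD and 12, 12.3 and 12.6 in KO-TGF, again without overlap between the groups. In SD, H2-D1 was 1.91-fold lower in KO than in WT (log2FC -0.93, SE 0.0579, adjusted p = 6.12e-15) and 1.82-fold lower in TGF (-0.87, SE 0.069, adjusted p = 2.74e-12), and TGF-β lowered it 1.51-fold in WT and 1.44-fold in KO. Per length, H2-K1 exceeded H2-D1 in every group, with a mean ratio of RPKM of 4.96 in WT-SD (4.70 to 5.13), 5.2 in WT-TGF (5 to 5.34), 3.8 in KO-SD (3.59 to 3.92) and 4.65 in KO-TGF (4.49 to 4.79). The KO-SD ratios were the lowest and overlapped with no other group. The exact two-sided permutation test of the log2 ratio gave p = 0.1 for KO against WT in SD, in TGF and for TGF-β in KO, which is the smallest p that 3 against 3 libraries allow (adjusted p = 0.133 over 4 tests), and p = 0.3 for TGF-β in WT. Mouse class I heavy chain genes are near-identical copies, and reads aligned to several of them were not counted, so the levels of H2-K1 and H2-D1 and their ratio are uncertain.

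B2m, the light chain shared by all class I molecules, fell with TGF-β and differed least of the 10 genes by genotype in SD. It measured, in CPM, 368, 355 and 376 in WT-SD, 289, 277 and 276 in WT-TGF, 391, 345 and 324 in KO-SD and 258, 249 and 248 in KO-TGF. The KO-SD libraries spanned those of WT-SD on both sides. TGF-β lowered B2m 1.3-fold in WT (log2FC -0.38, SE 0.0399, adjusted p = 5.71e-10) and 1.41-fold in KO (-0.49, SE 0.0406, adjusted p = 2.5e-12). Between genotypes the log2 fold change was -0.05 in SD (SE 0.0395, adjusted p = 0.293) and -0.16 in TGF (SE 0.041, adjusted p = 0.00147). The SD value turned on single libraries: it was -0.13 and called without KO-SD replicate 1 (adjusted p = 8.43e-05) and 0.01 without KO-SD replicate 3. The RPKM of B2m was 4.44 times the sum of both heavy chains in WT-SD (4.39 to 4.48), 4.93 times in WT-TGF (4.77 to 5.11), 10.2 times in KO-SD (9.43 to 11.4) and 8.85 times in KO-TGF (8.73 to 9.08). The KO libraries thus held more B2m mRNA per mRNA of H2-K1 and H2-D1 than the WT libraries, with no overlap. Other heavy chains are not in the sum, among them H2-T23, with mean RPKM of 28.1, 30.5, 26.6 and 31.2 in these groups. Reads aligned to several heavy chain genes were also not counted. The ratio of B2m to H2-K1 and H2-D1 is a description with no test.

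Both TAP chains fell with TGF-β, and Tap2 differed more between genotypes than Tap1 did in SD. Tap1 measured, in CPM, 52.2, 53.9 and 48.5 in WT-SD, 29.6, 30.3 and 31.2 in WT-TGF, 34.7, 36.8 and 38.8 in KO-SD and 17.9, 14.7 and 15 in KO-TGF. KO-SD lay between both WT groups. Tap1 fell 1.7-fold with TGF-β in WT (log2FC -0.76, SE 0.0537, adjusted p = 6.21e-14) and 2.31-fold in KO (-1.21, SE 0.0657, adjusted p = 7.49e-17), and was 1.4-fold lower in KO-SD (-0.49, adjusted p = 1.57e-09) and 1.91-fold lower in KO-TGF (-0.94, adjusted p = 3.02e-13) than in WT.

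Tap2 measured, in CPM, 33, 31.7 and 32.8 in WT-SD, 20.9, 20.5 and 18.5 in WT-TGF, 13, 16.7 and 13.8 in KO-SD and 7.73, 8.04 and 7 in KO-TGF. Here KO-SD lay below WT-TGF, with no overlap. Tap2 was 2.24-fold lower in KO-SD (log2FC -1.16, SE 0.0683, adjusted p = 1.56e-15) and 2.63-fold lower in KO-TGF (-1.4, SE 0.0878, adjusted p = 9.08e-15) than in WT, and fell with TGF-β 1.62-fold in WT and 1.91-fold in KO. The Tap1 and Tap2 proteins work as a pair, and the ratio of their RPKM was 1.72 to 1.98 in WT-SD, 1.65 to 1.96 in WT-TGF, 2.57 to 3.27 in KO-SD and 2.14 to 2.7 in KO-TGF. The ratios of the KO libraries were all above those of the WT libraries, as a description with no test. Tapbp, which bridges TAP and the class I molecule, ranged, in CPM, from 208 to 215 in WT-SD, 127 to 128 in WT-TGF, 176 to 184 in KO-SD and 96.7 to 105 in KO-TGF. Treatment moved Tapbp more than genotype: TGF-β lowered it 1.66-fold in WT (-0.74, adjusted p = 2.93e-20) and 1.76-fold in KO (-0.82, adjusted p = 5.64e-21), and KO was 1.19-fold lower in SD (-0.25, adjusted p = 9.13e-09), and 1.26-fold lower when both had TGF-β (-0.33, adjusted p = 2.23e-10).

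**Figure D2:**
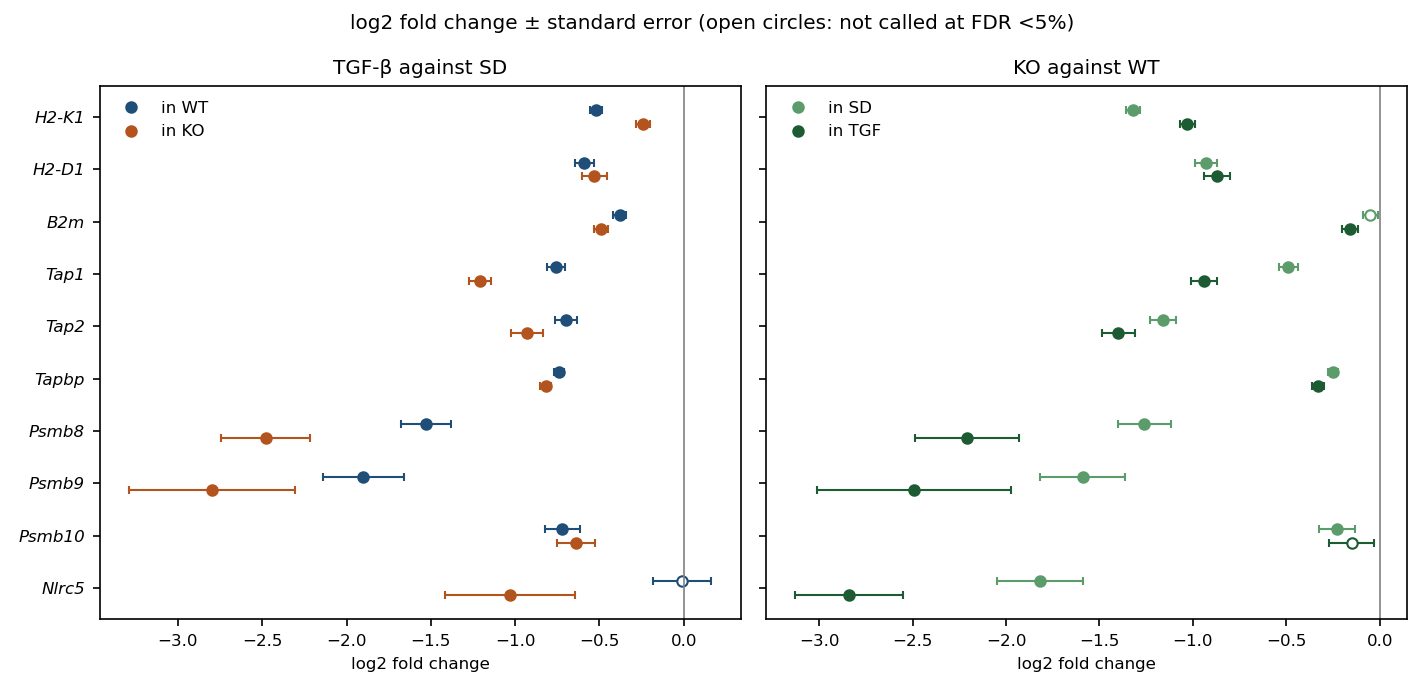
Log2 fold changes (x axis) of the 10 class I genes (y axis) with their SEs from edgeR: TGF-β against SD in WT and KO (left), KO against WT in SD and TGF (right); filled circles passed FDR <5%, open circles did not. Psmb8 and Psmb9 lie farthest to the left for TGF-β (-1.53 and -1.9 in WT), Nlrc5 farthest between genotypes (-1.82 in SD and -2.84 in TGF), and the open circles are Nlrc5 for TGF-β in WT, B2m in SD and Psmb10 in TGF.

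The immunoproteasome subunits Psmb8 and Psmb9 had the largest falls with TGF-β of the 10 genes, from low levels. Psmb8 (the LMP7 subunit) had 161, 174 and 179 counts in WT-SD, 42, 66 and 61 in WT-TGF, 74, 76 and 56 in KO-SD and 8, 17 and 7 in KO-TGF. In CPM its means were 7.66 ± 0.426 (SD, n = 3), 2.65 ± 0.574, 3.21 ± 0.574 and 0.57 ± 0.297. WT-TGF and KO-SD overlapped, and KO-TGF was below all others. Psmb8 fell 2.88-fold with TGF-β in WT (log2FC -1.53, SE 0.149, adjusted p = 1.31e-10) and 5.58-fold in KO (-2.48, SE 0.265, adjusted p = 7.89e-10), and was 2.39-fold lower in KO-SD (-1.26, adjusted p = 6.57e-09) and 4.62-fold lower in KO-TGF (-2.21, adjusted p = 4.38e-08) than in WT.

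Psmb9 (the LMP2 subunit) had 54, 62 and 42 counts in WT-SD, 13, 12 and 15 in WT-TGF, 16, 13 and 21 in KO-SD and 2, 1 and 3 in KO-TGF. No KO-TGF library exceeded 3 counts, the level taken as the floor of detection. From the summed counts, Psmb9 was 3.75 times as high in WT-SD as in WT-TGF (95% interval 2.64 to 5.45, counting error only) and 3.03 times as high in WT-SD as in KO-SD (2.19 to 4.25). Against KO-TGF the ratio was 7.29 for KO-SD (3.12 to 20.8) and 5.88 for WT-TGF (2.48 to 17). The log2 fold changes were -1.9 for TGF-β in WT (SE 0.241, adjusted p = 3.18e-08), -2.8 for TGF-β in KO (adjusted p = 7.73e-06), -1.59 for KO in SD (adjusted p = 5.51e-07) and -2.49 for KO in TGF (adjusted p = 0.000139), and those against KO-TGF depend on how such low counts are handled.

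Psmb10 (the MECL-1 subunit) fell with TGF-β, and its differences by genotype were small. It was 12.4 ± 1.07 CPM (SD, n = 3) in WT-SD, 7.48 ± 1.02 in WT-TGF, 10.5 ± 0.632 in KO-SD and 6.76 ± 1.2 in KO-TGF. TGF-β lowered it 1.64-fold in WT (log2FC -0.72, adjusted p = 2.99e-07) and 1.55-fold in KO (-0.64, adjusted p = 8.46e-06). In SD it was 1.17-fold lower in KO (-0.23, adjusted p = 0.0423), a call that was lost with DESeq2 (adjusted p = 0.0775), with CPM >1 in at least 3 libraries as the filter (0.0508), and without WT-SD replicate 3 (log2FC -0.16), KO-SD replicate 1 (-0.19) or KO-SD replicate 2 (-0.23). In TGF the libraries of the genotypes overlapped (-0.15, adjusted p = 0.308).

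The constitutive counterparts moved the other way with TGF-β. Psmb5, which Psmb8 replaces, went from 13.5 ± 0.731 CPM to 18.8 ± 0.943 (SD, n = 3), and in KO from 14.6 ± 0.785 to 21.0 ± 0.593. Psmb6, which Psmb9 replaces, went from 50.6 ± 1.43 to 62.1 ± 0.634 CPM and, in KO, from 54.5 ± 1.55 to 65.9 ± 1.65, and Psmb7, which Psmb10 replaces, from 63.0 ± 0.546 to 81.1 ± 1.17 and from 66.7 ± 3.69 to 89.3 ± 0.995. The log2 fold changes with TGF-β were 0.48, 0.3 and 0.36 in WT and 0.52, 0.27 and 0.42 in KO, with adjusted p-values of at most 1.87e-07. In WT-SD there was 0.314 of Psmb8 per Psmb5 (ratio of RPKM, 0.308 to 0.32), and this fell to 0.0775 in WT-TGF (0.0612 to 0.0891), 0.122 in KO-SD (0.094 to 0.137) and 0.0151 in KO-TGF (0.00989 to 0.0244). Psmb9 per Psmb6 was 0.0273, 0.00599, 0.00843 and 0.000949 in the same order, and Psmb10 per Psmb7 was 0.173, 0.0817, 0.14 and 0.0669. On the log2 scale the ratio of Psmb8 to Psmb5 changed by -2.04 with TGF-β in WT and -3.12 in KO, and by -1.39 and -2.47 with KO in SD and TGF. In 11 of the 12 comparisons of the 3 ratios the groups did not overlap, and each of these had an exact two-sided permutation p = 0.1, the smallest possible (adjusted p = 0.109 over 12 tests). Psmb10 to Psmb7 in TGF between genotypes was the exception (exact p = 0.3).

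**Figure D3:**
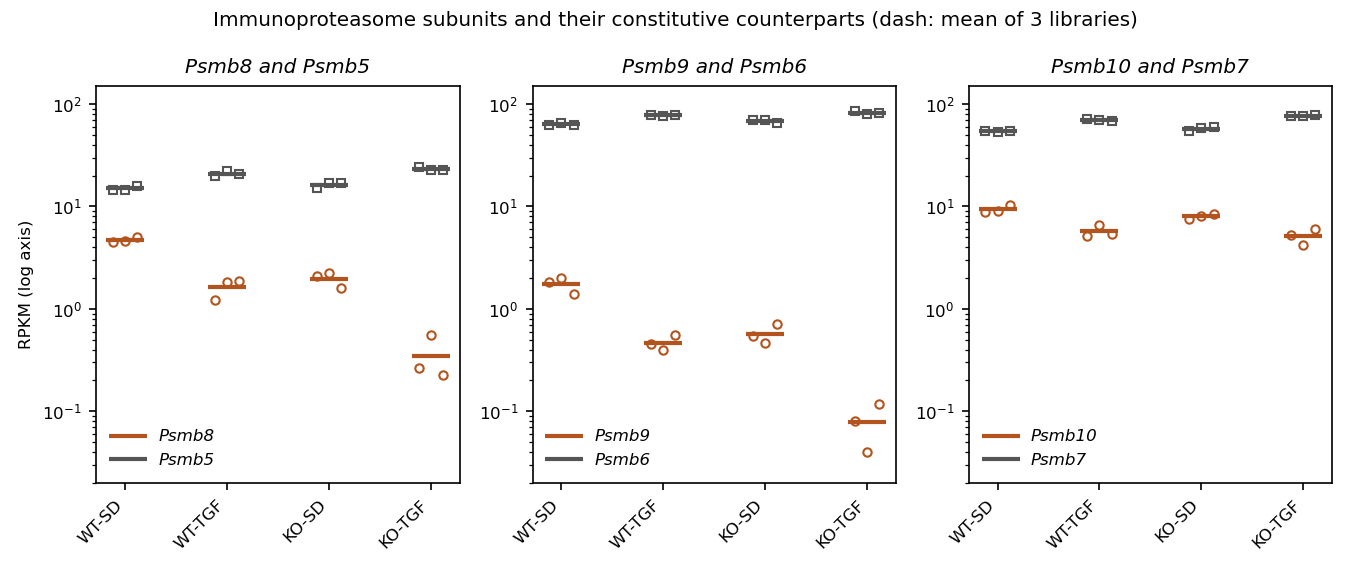
RPKM (log axis) of each immunoproteasome subunit (circles) and the constitutive subunit it replaces (squares) in the 4 groups; dashes are means of 3 libraries and symbols single libraries. The constitutive subunits are higher in the TGF groups, while Psmb8 drops from a mean of 4.7 RPKM in WT-SD to 0.35 in KO-TGF and Psmb9 from 1.74 to 0.0786.

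Nlrc5, the transactivator of class I genes, separated by genotype and not by TGF-β in WT. It had 63, 59 and 48 counts in WT-SD, 48, 63 and 47 in WT-TGF, 15, 19 and 11 in KO-SD and 6, 4 and 9 in KO-TGF. All KO libraries were below all WT libraries, and both WT groups overlapped. In the fit without the limit, Nlrc5 was 3.53-fold lower in KO-SD (log2FC -1.82, SE 0.231, adjusted p = 3.35e-14) and 7.18-fold lower in KO-TGF (-2.84, SE 0.289, adjusted p = 1.01e-21) than in WT. TGF-β gave a log2FC of -0.01 in WT (SE 0.174, adjusted p = 1), and its summed counts in WT-SD over those in WT-TGF gave a ratio of 1.02 (95% interval 0.818 to 1.28, counting error only). In KO it fell 2.04-fold (-1.03, SE 0.386, adjusted p = 0.0158), a call lost without KO-SD replicate 2 (-0.8, adjusted p = 0.119) or KO-TGF replicate 2 (-0.79, adjusted p = 0.109). Nlrc5 was below RPKM 1 in every library, from 0.0309 to 0.412. The macrophage and tubular marker sums and Podxl, given above, were also lower in KO than in WT, and their part in the difference was not tested.

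Ordered by RPKM, B2m led in every group. In WT-SD the order of mean RPKM was B2m (426), H2-K1 (79.8), Tapbp (73.3), Tap1 (17.5), H2-D1 (16.1), Tap2 (9.44), Psmb10 (9.42), Psmb8 (4.7), Psmb9 (1.74) and Nlrc5 (0.364). Tap1 and H2-D1 overlapped between libraries, as did Tap2 and Psmb10, and the other neighbors did not. In KO-TGF it was B2m (292), Tapbp (35.1), H2-K1 (27.2), H2-D1 (5.86), Tap1 (5.38), Psmb10 (5.16), Tap2 (2.21), Psmb8 (0.35), Psmb9 (0.0786) and Nlrc5 (0.0485). H2-D1, Tap1 and Psmb10 overlapped there, as did Psmb9 and Nlrc5. H2-K1 thus stood above Tapbp in both WT groups and below it in both KO groups (32.0 against 61.8 in KO-SD).

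To ask whether the response to TGF-β itself differed between genotypes, the interaction was tested, which is the log2 fold change in KO minus that in WT. Of the 10 genes, 2 had a more negative response in KO, against 16.4% of all genes tested, 1 a more positive response, against 8.47%, and 7 neither. Tap1 fell further in KO (interaction -0.45, SE 0.0863, adjusted p = 0.000168), as did Psmb8 (-0.95, SE 0.333, adjusted p = 0.034). H2-K1 fell less in KO (0.29, SE 0.0547, adjusted p = 0.000139), from a KO-SD level that was already below WT-TGF. The interaction was -0.9 for Psmb9 (adjusted p = 0.314) and -1.02 for Nlrc5 (adjusted p = 0.0811), with SEs of 0.611 and 0.424. It was between -0.23 and 0.08 for Tap2, B2m, Tapbp, H2-D1 and Psmb10, with adjusted p from 0.146 to 0.766. The Psmb8 call was lost without WT-SD replicate 1 (-0.92), WT-TGF replicate 2 or 3 (-0.86 for each), replicate 2 of KO-SD (-0.85), or replicates 1 (-0.75) or 3 (-0.68) of KO-TGF, so that the count of 2 became 1 without the first 5 of these. It was still 2 without KO-TGF replicate 3, where Nlrc5 passed (-1.35), and became 4 without KO-SD replicate 3, where B2m (-0.17) and Nlrc5 (-1.22) also passed.

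Other genes of the pathway were read from lists chosen by function. Their counts stand against the shares of all genes called lower and higher, which were 36.3% and 35.8% with TGF-β in WT, 39.0% and 34.7% with TGF-β in KO, 25.0% and 31.0% for KO in SD and 27.5% and 27.0% for KO in TGF. Of the 22 class I heavy chains of the Q, T and M regions and class I-like molecules, 9 were tested: 5 fell and 1 rose with TGF-β in WT, and 4 were lower and 1 higher in KO-SD (median log2 fold change -0.26 and -0.24). H2-Q4, a heavy chain of the Q region with near-identical copies, was 6.68 and 3.06 CPM in WT-SD and WT-TGF and 1.03 and 0.302 CPM in KO-SD and KO-TGF (the order kept below), a log2 fold change of -2.69 for KO in SD (adjusted p = 3e-14). Fcgrt, the neonatal Fc receptor that also pairs with B2m, was 47.2, 37.0, 33.1 and 17.2 CPM (-1.11 for KO in TGF, adjusted p = 4.64e-17). Hfe, an iron regulator of the same fold, fell with TGF-β (-1.23, adjusted p = 1.14e-09), and Mr1, which presents vitamin metabolites, was lower in KO in SD (-0.34, adjusted p = 8.01e-07). H2-T23, the Qa-1 molecule, was 41.3, 44.9, 39.2 and 45.9 CPM and did not pass the test between genotypes in TGF (0.03, adjusted p = 0.674).

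Genes for peptide loading and trimming, a list of chaperones and peptidases, moved in both directions with TGF-β. Of its 14 genes, all tested, 9 rose and 5 fell with TGF-β in WT (median 0.31, against 35.8% and 36.3% of all genes), and in SD 11 were higher and 2 lower in KO (median 0.15, against 31.0% and 25.0%). Calr, the calreticulin of the loading complex, rose from 546 to 926 CPM in WT and was 716 and 1090 CPM in KO-SD and KO-TGF (0.76 for TGF-β in WT, adjusted p = 7.96e-23, and 0.39 for KO in SD, adjusted p = 6.25e-15). Hspa5, the general endoplasmic reticulum chaperone BiP, rose with TGF-β by 1.06 (adjusted p = 1.93e-27), Hsp90b1 by 0.69 (adjusted p = 3.73e-22), and Pdia3, the oxidoreductase of the loading complex, was higher in KO in TGF by 0.23 (adjusted p = 1.09e-10). These chaperones serve all secretory proteins. Of the 18 genes of the 20S proteasome core and PA28, 16 rose with TGF-β in WT and 16 in KO (median 0.33 and 0.34, against 35.8% and 34.7% of all genes). In SD, 5 were higher and none lower in KO, against 31.0% and 25.0% of all genes. The largest statistical changes in WT were those of the core subunits Psmb2 (0.76, adjusted p = 2.34e-17) and Psma7 (0.5, adjusted p = 1.7e-12) and of the PA28γ subunit Psme3 (0.33, adjusted p = 4.83e-11). Psme1, the PA28α subunit and the gene that fell in WT, went from 27.1 to 19.3 CPM (-0.49, adjusted p = 1.65e-07) and was chosen after its value was seen.

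Regulators of class I genes and genes of interferon signaling had median changes near 0. Of 19 tested regulators, 8 fell and 2 rose with TGF-β in WT (median -0.03), where 36.3% and 35.8% of all genes did, and 10 were lower and 2 higher in KO-SD (median -0.11), where 25.0% and 31.0% of all genes were. Rfx5, which binds the X box, was 40.9, 22, 37.4 and 16.8 CPM in the 4 groups, in the order above (-0.89 for TGF-β in WT, adjusted p = 3.55e-15), and Irf1, the interferon-induced factor, fell by 0.62 on the log2 scale (adjusted p = 3.99e-12). By genotype in SD, Nfkb1 (-0.41, adjusted p = 5.04e-13) and Rela (-0.24, adjusted p = 2.27e-07), both subunits of NF-κB, were lower and Ezh2, a methyltransferase that silences genes, was higher (0.95, adjusted p = 6.6e-14). Of 20 interferon ligands, receptors and kinases, 7 had no count in any library, among them Ifng and Ifnb1, where a count of 0 allows up to 3 counts a library. Of the 10 tested, 6 fell and 4 rose with TGF-β in WT, against 36.3% and 35.8% of all genes. In KO-SD 6 were lower and none higher, against 25.0% and 31.0%. Jak2, the kinase of the interferon-γ receptor, was 229, 155, 145 and 124 CPM (-0.65 for KO in SD, adjusted p = 2.25e-18).

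Interferon-stimulated genes outside class I were lower in the same 4 comparisons. Of the 17 tested, 15 fell with TGF-β in WT (median -1.12), 16 in KO (median -1.36), 13 were lower in KO-SD (median -0.51) and 16 in KO-TGF (median -0.84), and none was higher in any of these comparisons. Of all genes tested, 36.3%, 39.0%, 25.0% and 27.5% were lower. Some of the 17, such as Oasl2 and Rtp4, had a mean RPKM above 1 in WT-SD alone (1.66 and 1.06). From there such genes could only differ downwards. In the fit without that limit, 25 of these genes had a count. Of these, 18, 18, 15 and 17 were lower and none was higher, against 25.8%, 28.5%, 17.9% and 20.3% of genes lower. Ifit3 had 41.4, 2.84, 17.2 and 0.885 CPM (-3.86 for TGF-β in WT, adjusted p = 8.85e-26, and -1.27 for KO in SD, adjusted p = 9.45e-17), and Ifit2 fell by 2.56 with TGF-β in WT (adjusted p = 2.13e-25). Both encode antiviral proteins. The guanylate-binding protein gene Gbp2 had 44.1, 16.1, 24.9 and 8.97 CPM (-0.82 for KO in SD, adjusted p = 1.41e-14). Cd274, which encodes PD-L1, had 19.9, 10.9, 7.23 and 3.96 CPM (-1.46 for KO under both conditions, adjusted p = 7.35e-16 without and 7.61e-13 with TGF-β). Of the 11 genes of the class II pathway, 3 were tested. H2-DMb1, a chain of the class II peptide exchanger, was lower in KO (-1.39, adjusted p = 1.2e-10 without TGF-β, and -2, adjusted p = 2.25e-13 with it), and Ifi30, a lysosomal thiol reductase, was higher in KO in SD (0.44, adjusted p = 1.42e-11). The class II chains and the invariant chain Cd74 had few counts, and are named after their values were seen. Summed over the 3 libraries of each group, in the order used above, H2-Eb1 had 32, 14, 9 and 2 counts, Cd74 had 42, 15, 22 and 7, H2-Ab1 had 18, 11, 1 and 0, and H2-Aa had 1, 1, 0 and 0. The lowest sums were those of KO-TGF (tied with KO-SD for H2-Aa), as for the macrophage markers, and their part in the class I values was not tested.

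**Figure D4:**
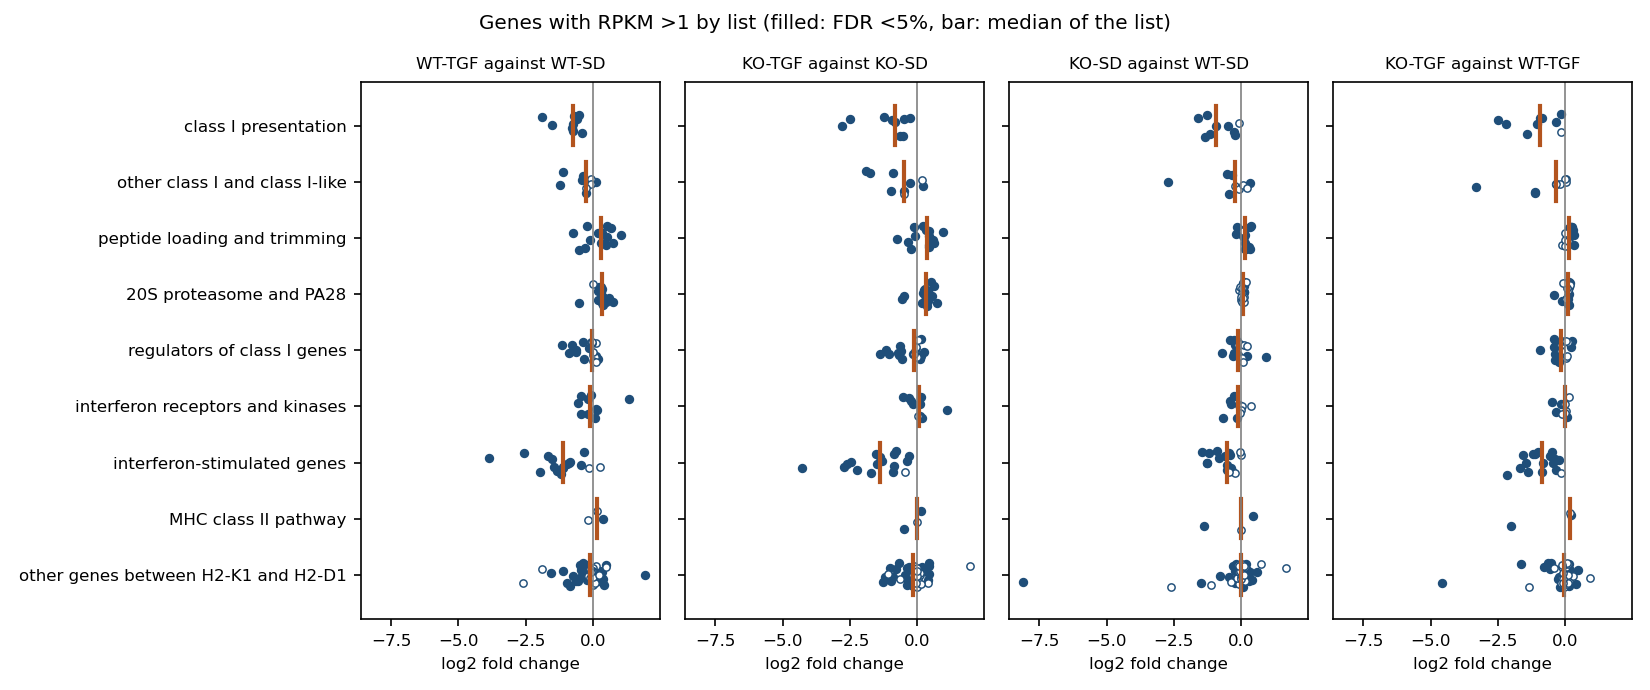
Log2 fold changes (x axis, the same scale in all 4 panels) of the genes with RPKM >1 in each list (y axis) in the comparisons named above the panels; filled points passed FDR <5%, open points did not, and the bar is the median of the list. The class I presentation genes and the interferon-stimulated genes lie to the left in all 4 panels (medians of the interferon-stimulated genes -1.12, -1.36, -0.51 and -0.84), the 20S proteasome lies to the right with TGF-β (0.33 and 0.34), and the other genes between H2-K1 and H2-D1 have medians between -0.14 and 0.01.

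The other genes of the same stretch of chromosome 17 are given as counts beside the shares of all genes, with no test of the stretch. Of the 85 other genes between H2-K1 and H2-D1 that are in none of the lists, 44 were tested. Between genotypes 9 of them were lower in KO and 10 higher in SD (median 0.01, against 25.0% and 31.0% of all genes), and 10 lower and 9 higher in TGF (median -0.02, against 27.5% and 27.0%). With TGF-β 18 fell and 9 rose in WT (median -0.11, against 36.3% and 35.8%), and 20 fell and 7 rose in KO (median -0.14, against 39.0% and 34.7%).

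Profiles across the 12 libraries were compared by the root mean square difference of log2 CPM after each gene was centered on its mean, over 10151 genes that averaged at least 5 CPM. The genes nearest to H2-K1 were Ctsz (0.12), a lysosomal cathepsin, Rab32 (0.12), a small GTPase, and Irx3 (0.13), a homeobox factor. Ctsz was 87.4, 75.8, 40.1 and 32.8 CPM in the 4 groups, in the order above. The nearest to Psmb8 were Cbx7 (0.27), a Polycomb protein, Klhdc7a (0.29) and Spint2 (0.31), a protease inhibitor, and Cbx7 was 28.6, 10.3, 13.7 and 2.35 CPM. The nearest to Nlrc5 were Ephb6 (0.31), an ephrin receptor, Malrd1 (0.31) and Wt1 (0.32), a transcription factor and podocyte marker. Wt1 was 98.7, 68.3, 25.3 and 11.7 CPM. These distances describe likeness over the same 12 libraries and carry no test.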

How the data were processed

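RNA-seq libraries of MMC from WT and lncMGC-KO5 mice, in SD or with TGF-β, were analysed (12 libraries, 3 per group, as the labels name them). TopHat (single-end alignment to mm10) and HTSeq (stranded counting over RefSeq genes) were used by the authors. The deposited values are these raw counts, with no normalization. Reads assigned to no gene (10.3% to 15.4% of a library), with several alignments (11.2% to 11.7%) or on overlapping genes (0.225% to 0.274%) stayed out of library sizes and tests.

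Genes with RPKM >1 in at least 1 library were kept (11801), with exon lengths from GENCODE vM21 transcripts matched to RefSeq. Counts were TMM-normalized and compared by the quasi-likelihood test of edgeR 4.0.16 under R 4.3.3, in 1 fit of all libraries, with 5 contrasts and Benjamini-Hochberg adjustment over all genes. Nlrc5 and other genes under the limit come from a second fit without the limit (18565 genes). Ratios were compared by exact permutation tests. Within groups, libraries differed beyond sampling noise (chi-square per degree of freedom 1.33 to 5.2 over 12 pairs), so none was taken as a repeat copy. Intervals cover counting error only. The fit was tested on counts simulated from the WT-SD and WT-TGF libraries alone, with the same dispersion for every gene. The KO groups were not simulated. Symbols were matched to RefSeq genes (24930 by symbol, 199 by synonym, 101 not).

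Genes named from each list are up to 3 with the smallest adjusted p and at least 5 CPM in the higher group, for TGF-β in WT and for KO against WT. The 10 genes, lists and rule were chosen with earlier results of these data known. A few results within this rule are left out here. Alternatives were library size alone, DESeq2 1.42.0, other filters, a block for the replicate number, a fit of the compared groups alone, a pseudocount of 1 RPKM for ratios, and leaving out each library.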

Additional observations from a re-analysis of the deposited data

Results flagged for a closer look

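The response to TGF-β differed between genotypes in 3 of the 10 class I genes by the test of the interaction itself (edgeR's quasi-likelihood test), given as the log2 fold change in KO minus that in WT. Over all genes tested, 16.4% had a more negative and 8.47% a more positive response in KO, so the counts of 2 and 1 among the 10 are close to the shares of all genes. The difference was 0.29 for H2-K1, -0.45 for Tap1 and -0.95 for Psmb8. H2-K1 and Tap1 passed in every alternative and without each of the 12 libraries. Psmb8 did not pass without any of 6 libraries, with adjusted p from 0.0522 to 0.198.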

How the results depend on the processing

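The numbers of class I genes lower or higher in the 4 comparisons between pairs of groups moved by less than 1.5 times under every alternative. The number with a more negative TGF-β response in KO, 2 in the fit reported, was 4 with library size alone, where B2m (-0.15) and Tapbp (-0.13) also passed, and 1 to 4 without single libraries. Compared with TMM, library size alone shifted the median log2 fold change of all genes by -0.17 for TGF-β in WT, -0.21 in KO, -0.08 for KO in SD and -0.12 in TGF. B2m then passed in SD (-0.13, adjusted p = 0.00476). With no filter the B2m interaction passed (-0.13, adjusted p = 0.0098). Without single libraries Nlrc5 for TGF-β in WT ranged from -0.11 to 0.09 (0.04 and 0.05 in between), the Psmb10 interaction from 0.00 to 0.25 and B2m in SD down from 0.01 to -0.13, and the Tap2 interaction passed without KO-SD replicate 1 (-0.31, adjusted p = 0.036). The causes were not tested.

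Replicate numbers marked at most a weak pairing of the libraries. Same-numbered libraries deviated from their group means with correlations of -0.03 to 0.07 over 18 pairs. Of the 12 libraries, 9 correlated best with their own number. With the replicate number as a block, 9, 10, 9 and 9 genes were lower in the 4 comparisons and no call changed. Low counts limit Psmb9 in KO-TGF (1 to 3 counts) and Nlrc5 in KO (4 to 19 counts).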
